A study of Mus musculus with 32 samples.

Results

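Amot, Efnb3, Itga3, Nisch and Unc5c, 5 genes that the study annotated with cell migration, were followed through 4 conditions of an eIF4E induction experiment on 2-colour cDNA arrays. They were chosen by a measured value. The study listed 10 genes under cell migration among those with a reduced polysomal/total RNA ratio after eIF4E induction, so the genes were selected on that contrast, and they were found through their clones in its list of translationally regulated clones. The row names of the deposited table did not belong to the values, so a gene's row was taken as the one whose polysomal/total difference equalled the clone's listed difference to 6 digits; 5 of the 10 genes, each with such a row among 15247 clones, are described. Nr2f2 has a clone but no row, Dcx, Tgfbr1 and Vcl have no clone in that list, and these 4 were not analysed here.

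The comparison was between a pair of NIH 3T3 mouse fibroblast lines. 3T3-tTA-eIF4E carries eIF4E under a tetracycline-repressed promoter, and the parental line 3T3-tTA carries the tetracycline transactivator alone; eIF4E is the protein that binds the cap of an mRNA and recruits the ribosome. In each line, total RNA of cells induced for 5 h by removing tetracycline was set against that of uninduced cells, and RNA of heavy polysomes of induced cells against total RNA, with 4 arrays for each of the 4 conditions and 32 deposited samples that are the 2 duplicate spots of 16 arrays. Removal of tetracycline was common to both lines, and each line stands for 1 cell line. Per the methods the 4 arrays of a condition come from 2 RNA extractions, each labelled in both dye orientations, so the spread among them is partly technical. The arrays carry the numbers of the sample titles, T for total RNA (T1, T3, T5 and T7 parental, T9, T11, T13 and T15 3T3-tTA-eIF4E) and P for polysomal RNA (P1, P3, P5 and P7 3T3-tTA-eIF4E, P9, P11, P13 and P15 parental).

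Cell migration is steered by guidance cues and their receptors, by integrins that grip the matrix, and by signals that remodel the actin cytoskeleton at the front of the cell. In fibroblasts, integrins and their partners couple the matrix to actin, and guidance receptors turn or repel the moving cell. How many ribosomes an mRNA carries can be controlled at the cap, at its start sequence or through microRNAs that pair with it.

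The start sequences are shown because eIF4E acts at the cap and because mRNAs whose first bases are an unbroken run of pyrimidines form a known class of translationally controlled mRNAs. RefSeq start windows (GRCm38.p6) matched 4 of the 5 genes by symbol, all but Efnb3. Each line holds 20 bases before the annotated start in lower case and the first 10 transcribed bases in capitals.
Unc5c (chr3:141465544-141465573, plus strand): ccaccccctttggcccctgcCCTTGGAGAA
Itga3, first start (chr11:95076705-95076734, minus strand): ggggcgcgctggggaggatcCCTCCCTCCT
Itga3, second start (chr11:95069189-95069218, minus strand): tctgggttcccgttgtccagAGGGCTGGTG
Nisch (chr14:31206817-31206846, minus strand): tgccactggttgtgctgtcaATTACGGGCA
Amot (chrX:145487630-145487659, minus strand): aagcaccgccagctctagagATGAGAAGTT
From the first transcribed base, the upper Itga3 window ran through 10 pyrimidines (C or T), Unc5c through 4, and Nisch, Amot and the lower Itga3 window through 0. Such a run of at least 5 pyrimidines, searched on the transcribed strand from the start base on, was found in 1457 of the 32851 start windows of this table (4.44%). It is a feature of the annotated start, and which start these cells use was not measured.

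The microRNAs are shown because the study's annotation also placed 2 of the 5 genes among predicted microRNA targets: Efnb3 under miR-204 and Nisch under miR-331. The arm is not given there, so both arms are printed. Sequences are from RefSeq (GRCm38.p6), with the seed, bases 2 to 8, in capitals.
mmu-miR-204-5p (chr19:22750610-22750631, plus strand): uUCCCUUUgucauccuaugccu
mmu-miR-204-3p (chr19:22750649-22750669, plus strand): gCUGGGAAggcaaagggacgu
mmu-miR-331-5p (chr10:93963817-93963838, minus strand): cUAGGUAUggucccagggaucc
mmu-miR-331-3p (chr10:93963783-93963803, minus strand): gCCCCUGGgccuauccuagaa
The 4 seeds all differ. MicroRNAs were not measured on these arrays, and no target site was examined.

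All values are log2 ratios turned so that a positive value means more induced than uninduced RNA (total arrays) or more polysomal than total RNA (polysomal arrays). Eif4e checks the labels of the total RNA arrays, not those of the polysomal arrays, and 3 of its 4 listed clones have a row. On total RNA their ratios lay between 2.09 and 5.16 on the arrays of 3T3-tTA-eIF4E and between -0.21 and 0.27 on those of 3T3-tTA. Arrays of opposite dye orientation in one condition correlated at r from -0.61 to 0.14 over all clones, against 0.33 to 0.58 for arrays of the same orientation. The labels state both dyes of each array, so the direction was left as they give it, and values are given by orientation as well. The sources disagree on the reference hybridized with polysomal RNA of 3T3-tTA-eIF4E: it is uninduced total RNA in the labels and induced total RNA in the methods, and the methods were followed. Ratios give no expression level by which the fibroblast label could be examined. Since bulk RNA was hybridized, a change in all cells and a change in some of them cannot be told apart.

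Polysomal/total ratios came first, as a description, since the genes were selected on them. In 3T3-tTA-eIF4E the mean log2 ratio of the 5 genes lay between -0.29 (Unc5c) and -0.12 (Amot), and in 3T3-tTA between 0.29 (Itga3) and 0.68 (Nisch). The difference, 3T3-tTA-eIF4E minus 3T3-tTA, was therefore below 0 for all 5, from -0.96 to -0.56 with a median of -0.72, which the choice of the genes fixed. Over all clones the median difference was 0.01. No overlap between the 2 lines was seen for 3 of the 5 genes, beside 93 of all 15247 clones with every 3T3-tTA-eIF4E array below every parental array (0.61%); as the rule used this contrast, nothing is read from that count.

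**Figure D1:**
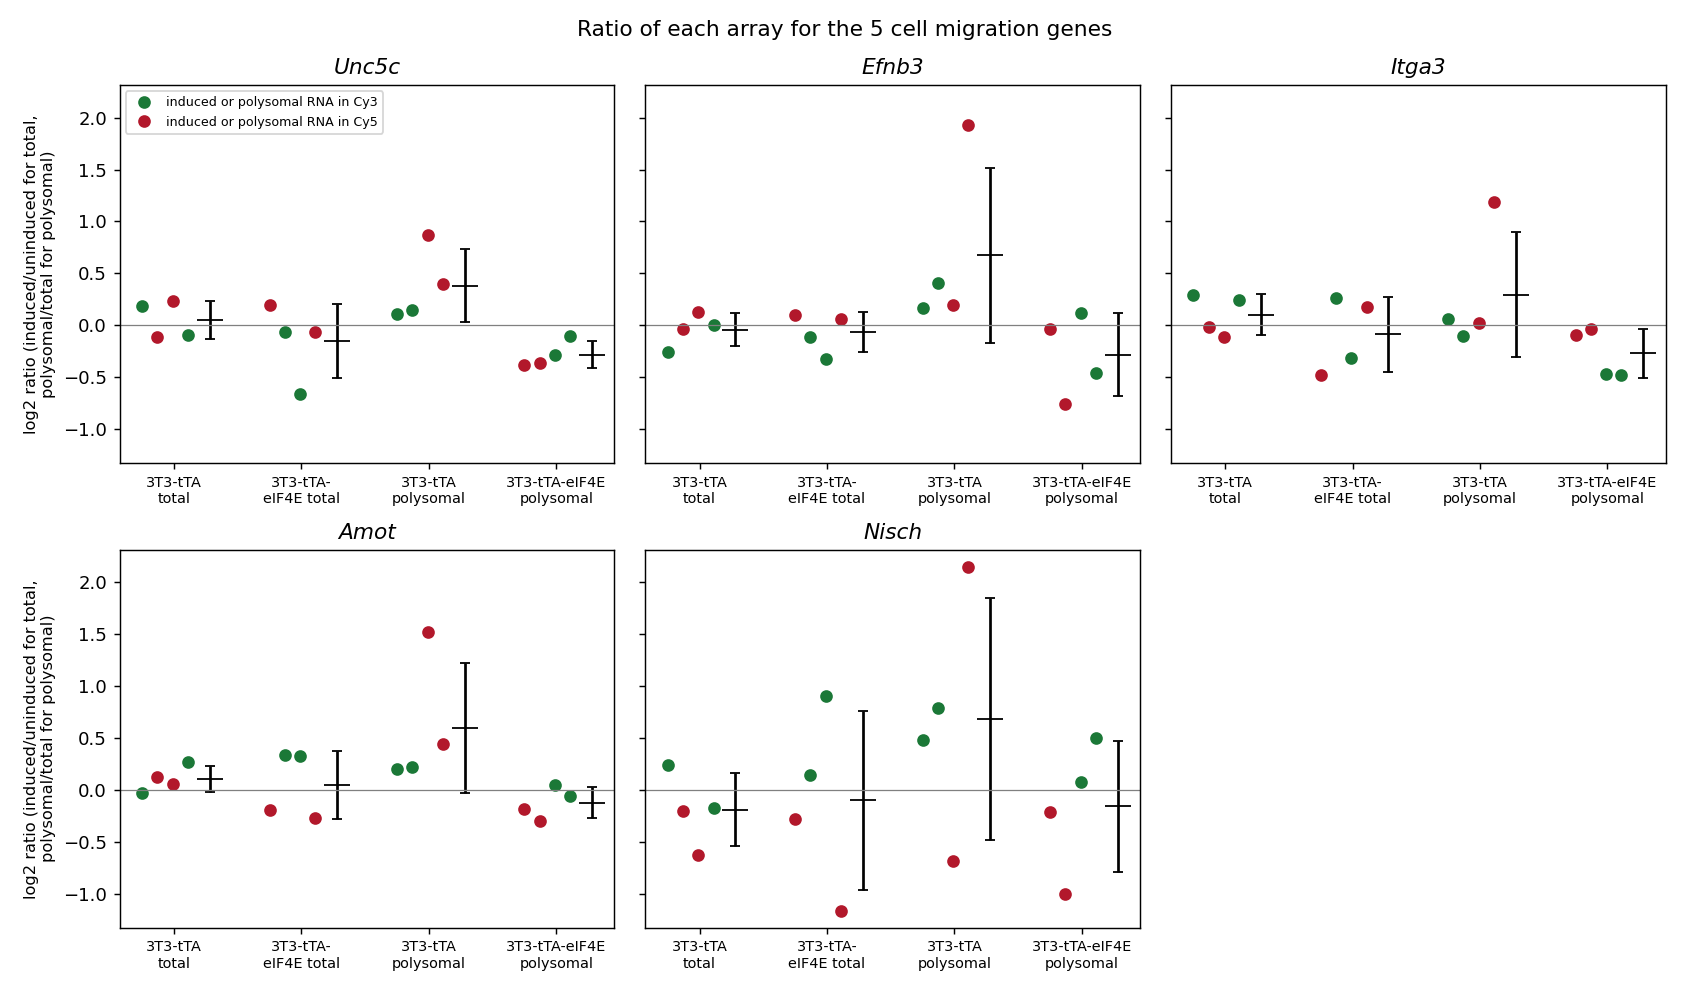
Log2 ratio (y axis) of every array for each gene in the 4 conditions (x axis), green where the induced or polysomal RNA was labelled with Cy3 and red where it was labelled with Cy5; the bar is the mean ± SD of 4 arrays. The total RNA values scatter about 0, and in every panel the highest polysomal value of 3T3-tTA is a red point.

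Of the guidance molecules, Unc5c encodes a netrin receptor that mediates repulsion. On polysomal RNA its log2 ratios in 3T3-tTA-eIF4E were -0.39 on P1, -0.36 on P3, -0.29 on P5 and -0.10 on P7 (mean -0.29 ± 0.13, SD, n = 4 arrays). In 3T3-tTA they were 0.11 on P9, 0.14 on P11, 0.87 on P13 and 0.40 on P15 (0.38 ± 0.35). Every array of the first line was thus below 0 and every array of the second above it, and the ranges did not overlap. The difference was -0.67 in log2, a ratio of 0.630 between the lines. Its spots were dim, under 1.5 times local background in 7 of 8 scanner readings, and on the 4 scanned arrays the difference was -0.51 as deposited and 0.82 after background correction, a turn that rested on P15. On total RNA, induced over uninduced, the ratios were 0.19 on T9, -0.07 on T11, -0.66 on T13 and -0.07 on T15 in 3T3-tTA-eIF4E. In 3T3-tTA they were 0.18 on T1, -0.12 on T3, 0.23 on T5 and -0.10 on T7, and the lines overlapped.

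Efnb3 encodes ephrin-B3, a membrane-bound ligand of Eph receptors that repels growing axons and migrating cells. Its polysomal/total log2 ratios in 3T3-tTA-eIF4E were -0.03 on P1, -0.76 on P3, 0.12 on P5 and -0.46 on P7 (-0.28 ± 0.40). In 3T3-tTA they were 0.16 on P9, 0.40 on P11, 0.19 on P13 and 1.93 on P15 (0.67 ± 0.85). The lines did not overlap, but the gap between the highest array of one and the lowest of the other, 0.12 against 0.16, was small. The difference was -0.96 in log2, a ratio of 0.515. On total RNA the ratios in 3T3-tTA-eIF4E were 0.10 on T9, -0.11 on T11, -0.32 on T13 and 0.06 on T15. Those of 3T3-tTA were -0.26 on T1, -0.04 on T3, 0.13 on T5 and 0.00 on T7, so that both lines lay about 0.

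Itga3 encodes the integrin alpha3 chain, which with beta1 forms a laminin receptor. On polysomal RNA its log2 ratios in 3T3-tTA-eIF4E were -0.10 on P1, -0.04 on P3, -0.47 on P5 and -0.48 on P7 (-0.27 ± 0.24). The parental ratios were 0.06 on P9, -0.10 on P11, 0.02 on P13 and 1.19 on P15 (0.29 ± 0.60). The lines overlapped, and P15 stood alone above the other 3 parental arrays, whose mean was -0.01. The difference was -0.56 in log2, a ratio of 0.677. Of the 5 genes Itga3 lay nearest 0 with all polysomal arrays, while without P15 Nisch did (-0.17 against -0.31). On total RNA the ratios in 3T3-tTA-eIF4E were -0.48 on T9, 0.26 on T11, -0.31 on T13 and 0.17 on T15. Those of 3T3-tTA were 0.29 on T1, -0.02 on T3, -0.11 on T5 and 0.24 on T7, inside the range of the other line but for T1.

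Nisch encodes nischarin, a cytosolic protein that binds the integrin alpha5 tail and restrains Rac and PAK signalling. Its polysomal/total log2 ratios in 3T3-tTA-eIF4E were -0.21 on P1, -1.004 on P3, 0.08 on P5 and 0.50 on P7 (-0.16 ± 0.63). On the parental arrays they were 0.48 on P9, 0.79 on P11, -0.69 on P13 and 2.15 on P15 (0.68 ± 1.17). The 2 parental Cy5 arrays, P13 and P15, held the lowest and the highest value of that line, and the lines overlapped. The difference was -0.84 in log2, a ratio of 0.558. On total RNA Nisch also scattered most, with -0.28 on T9, 0.14 on T11, 0.91 on T13 and -1.16 on T15 in 3T3-tTA-eIF4E. In 3T3-tTA the ratios were 0.24 on T1, -0.20 on T3, -0.63 on T5 and -0.17 on T7, within the range of the other line.

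Amot encodes angiomotin, a scaffold at cell junctions that binds angiostatin and takes part in endothelial movement. On polysomal RNA its log2 ratios in 3T3-tTA-eIF4E were -0.18 on P1, -0.30 on P3, 0.05 on P5 and -0.06 on P7 (-0.12 ± 0.15). The parental line gave 0.20 on P9, 0.22 on P11, 1.52 on P13 and 0.44 on P15 (0.59 ± 0.63). The lines did not overlap. On P13, however, the duplicate spots gave -0.13 and 3.17, a gap of 3.30 that exceeded the gap of 99.3% of clones on that array, where the median gap was 0.17. The difference was -0.72 in log2, a ratio of 0.609, and it was -0.29 from the first duplicate spots alone and -1.14 from the second. On total RNA the ratios in 3T3-tTA-eIF4E were -0.20 on T9, 0.33 on T11, 0.33 on T13 and -0.27 on T15, positive in both Cy3 arrays and negative in both Cy5 arrays. In 3T3-tTA they were -0.03 on T1, 0.12 on T3, 0.06 on T5 and 0.27 on T7, within the range of the other line.

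The parental Cy5 arrays carried the highest value of that line for all 5 genes: P15 for Efnb3, Itga3 and Nisch, and P13 for Amot and Unc5c. Over all clones P15 also had the widest spread, with an SD of 1.00 beside 0.48 to 0.86 on the other 7 polysomal arrays. Without P15, fitting a dye term for each clone, the difference moved to -0.17 for Nisch, -0.51 for Efnb3 and -0.31 for Itga3. Without P13 it moved to -0.40 for Amot and -1.31 for Nisch. Unc5c moved least, to between -0.77 and -0.50 whichever array was left out. The arrays with polysomal RNA in Cy3 alone gave differences from -0.46 to -0.21, and those with it in Cy5 alone from -1.46 to -0.67. All of these differences lay below 0, the direction that the choice of the genes fixed, and the part of dye and of P15 in their size was not tested. The count of genes without overlap was 3 with any 1 of 7 arrays left out and also without P13 and P15 together, and 4 without P11, where Itga3 joined. Fewer arrays make the criterion looser: the share of all clones meeting it was 0.912% to 1.69% with 1 array left out (1.32% without P11) and 6.07% without P13 and P15, so these counts are no sign of stability. With the reference of the 3T3-tTA-eIF4E arrays read as the labels give it, the differences ran from -0.89 to -0.47.

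**Figure D2:**
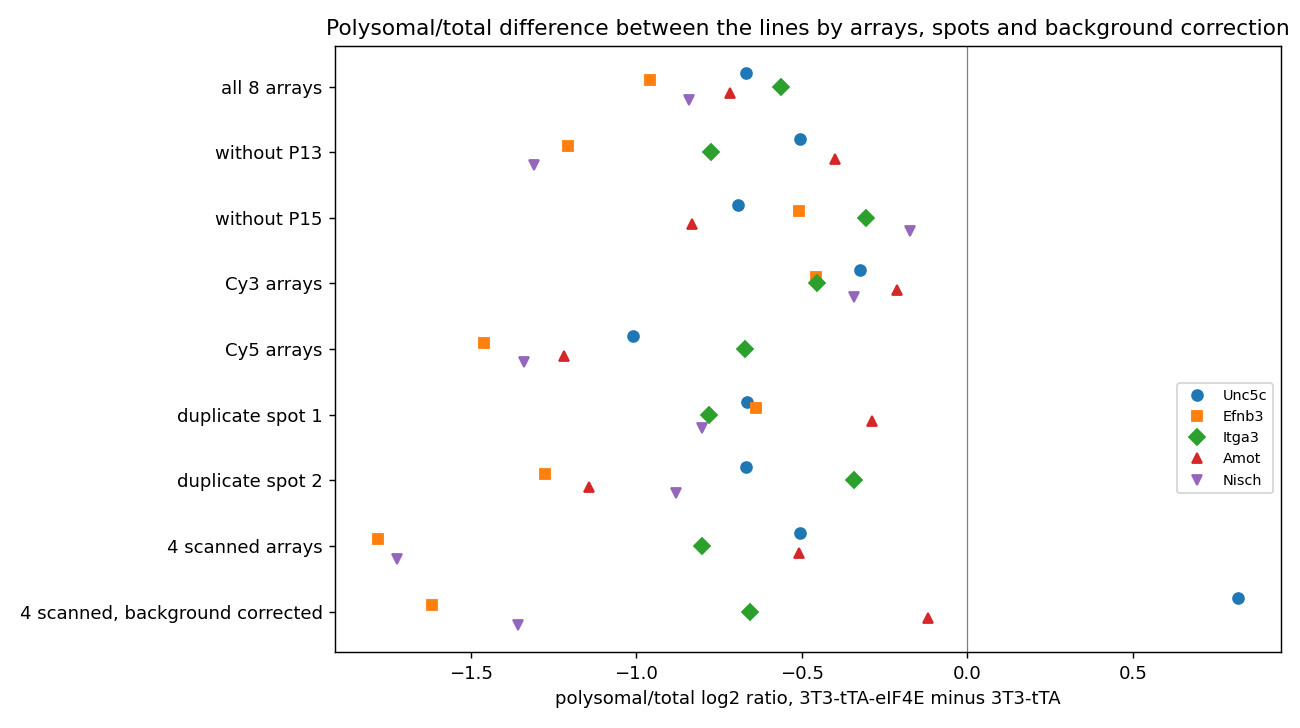
Difference of the polysomal/total log2 ratio between the lines (x axis) for each gene (symbols), from all 8 arrays and from subsets of arrays or spots or after background correction (y axis). The values lie left of 0 but for Unc5c at 0.82 after background correction, and the Cy5 arrays lie farther from 0 than the Cy3 arrays for each gene.

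Scanner intensities were available for P3, P7, P11 and P15. The spot was set against its local background in each channel (mean of the 2 spots), which gives 8 readings a gene. Efnb3 lay at 3.70 to 27.8 times background, with its lowest readings on P15 (3.70 in Cy3 and 4.28 in Cy5). Nisch lay between 1.23 and 13.1 times. Amot was under 1.5 times background in 5 of 8 readings, Itga3 in 5 and Unc5c in 7. For these 3 genes a ratio therefore compared readings that were in part no brighter than the glass around the spot.

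On P15 the Cy5 readings, which hold the polysomal RNA, were 4540 and 4686 for the Nisch spots over backgrounds of 307 and 411, whereas on the other 3 arrays no Nisch reading in Cy5 passed 856. For Itga3 they were 1226 and 1393 over 364 and 354, with Cy3 no brighter than background. The median clone of P15 was at 5.19 times background in Cy5, so that Nisch, at 13.1 times, was above it and Itga3, at 3.65 times, below. For Efnb3 the Cy5 spots of 7309 and 7401 lay in a background of 2648 and 1278, and for Unc5c spots of 757 and 623 lay in a background of 1400 and 4783, beside a median Cy5 background of 298 on that array.

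The authors subtracted no background. Recomputed with it (normexp, then loess) on these 4 arrays, the ratio of Unc5c on P15 went from 0.40 to -1.88, and its difference between the lines from -0.51 to 0.82. Amot moved to -0.12 from -0.51. Efnb3 stayed at -1.62 against -1.78, Nisch at -1.36 against -1.72 and Itga3 at -0.66 against -0.80. Direction on these 4 arrays was thus kept for 4 genes and turned for Unc5c. Without P15 the parental side was P11 alone, with polysomal RNA in Cy3, set against P3 and P7, so dye orientation was not balanced. The corrected difference was then -0.16 for Unc5c, against -0.38 as deposited, and -0.18 for Nisch against -1.04. For Efnb3 it was -0.96 against -1.02, for Itga3 -0.23 against -0.16 and for Amot -0.09 against -0.39.

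**Figure D3:**
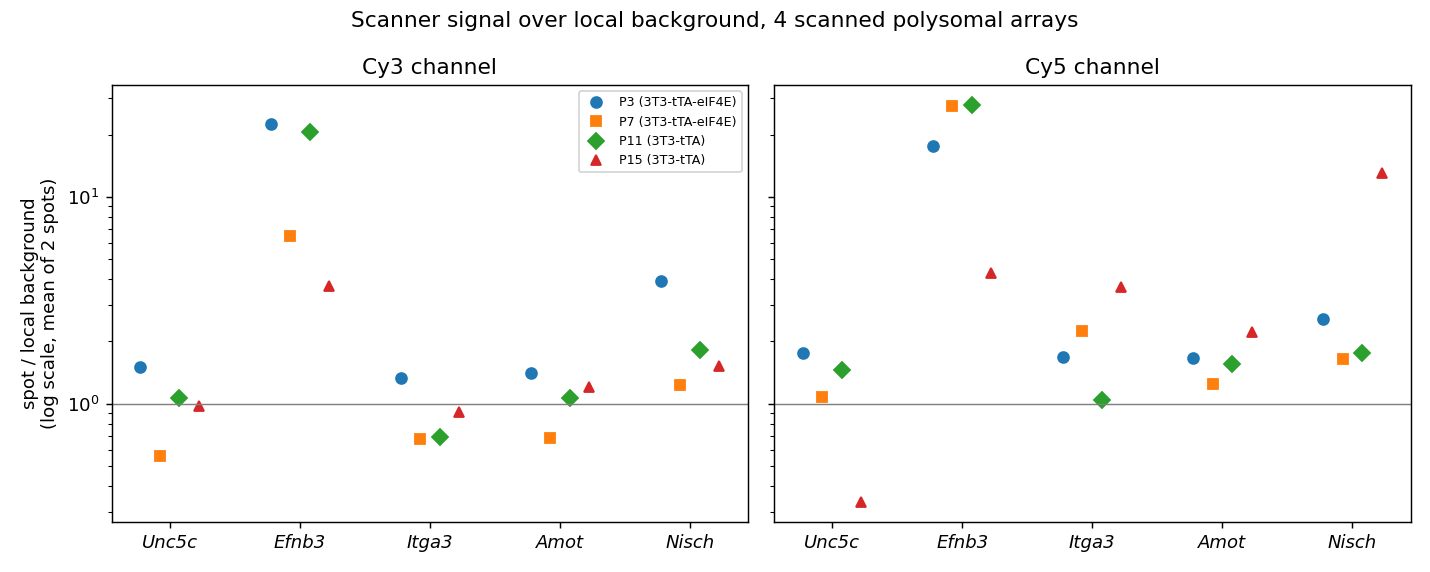
Spot intensity over local background (y axis, log scale, mean of the 2 duplicate spots) for each gene (x axis) on the 4 scanned polysomal arrays, Cy3 left and Cy5 right; the line marks equality with background. The Efnb3 readings stand above the line, lowest on P15, while Unc5c, Itga3 and Amot lie about it and Unc5c on P15 falls to 0.335 in Cy5.

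Total RNA was not used by the rule and could be tested. The question was whether the abundance of these mRNAs changed with eIF4E induction beyond the change seen in the parental line. None of the 5 genes passed (limma, adjusted p under 0.1 and at least 1.3-fold), beside 0 of all 15247 clones (0%). The induced gene itself did not pass this fit: the 3 Eif4e clones differed by 3.75, 2.91 and 2.69 in log2, with adjusted p of 0.946, 1.00 and 0.438 (limma). That none of the 5 passed therefore says little about them. At an unadjusted p under 0.05 (limma), 68 of all clones (0.446%) and 0 of the 5 genes were found. That p is the largest of the 4 assignments of arrays to extractions. With arrays in place of extractions as replicates 3 clones passed, none of them among the 5. The Eif4e clones H3130B02 and H3089A10 passed there, each with an adjusted p of 0.0300 (limma), and H3012A09 did not (0.310). The difference in log2, 3T3-tTA-eIF4E minus 3T3-tTA, was -0.20 ± 0.18 (SE) for Unc5c, -0.19 ± 0.22 for Itga3, -0.06 ± 0.11 for Amot, -0.03 ± 0.12 for Efnb3 and 0.09 ± 0.31 for Nisch. Their median was -0.06, beside -0.01 over all clones, and every adjusted p was 1.00. With an array left out (dye term for each clone) the difference came to lie nearest 0 without T13 for Unc5c and Itga3, at -0.04 and -0.05, and T13 had the widest spread over all clones of the total RNA arrays, an SD of 0.55. The arrays of the lines overlapped for all 5 genes, and 140 of all clones had no overlap in one direction or the other (0.918%).

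For Efnb3 and Amot the 95% interval of the total RNA difference ran from -0.34 to 0.29 and from -0.34 to 0.22, and for Unc5c from -0.65 to 0.24. For Itga3 and Nisch it was wider, from -0.76 to 0.38 and from -0.70 to 0.88. These intervals are for single genes before adjustment and are not the detection limit of the adjusted test, which did not call the Eif4e clones either.

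Within the lines no gene passed either. In 3T3-tTA-eIF4E, where 2 of all clones passed (0.0131%), the induced over uninduced log2 ratio lay between -0.15 (Unc5c) and 0.05 (Amot), with adjusted p of 0.963 to 0.989 (limma). In 3T3-tTA, where 0 clones passed (0%) and 4.16% had an unadjusted p under 0.05, it lay between -0.19 (Nisch) and 0.10 (Amot), with adjusted p of 0.897 to 0.949. Of the genes 4 were below 0 in the first line and 2 in the second, Nisch and Efnb3 in both, but every interval included 0.

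**Figure D4:**
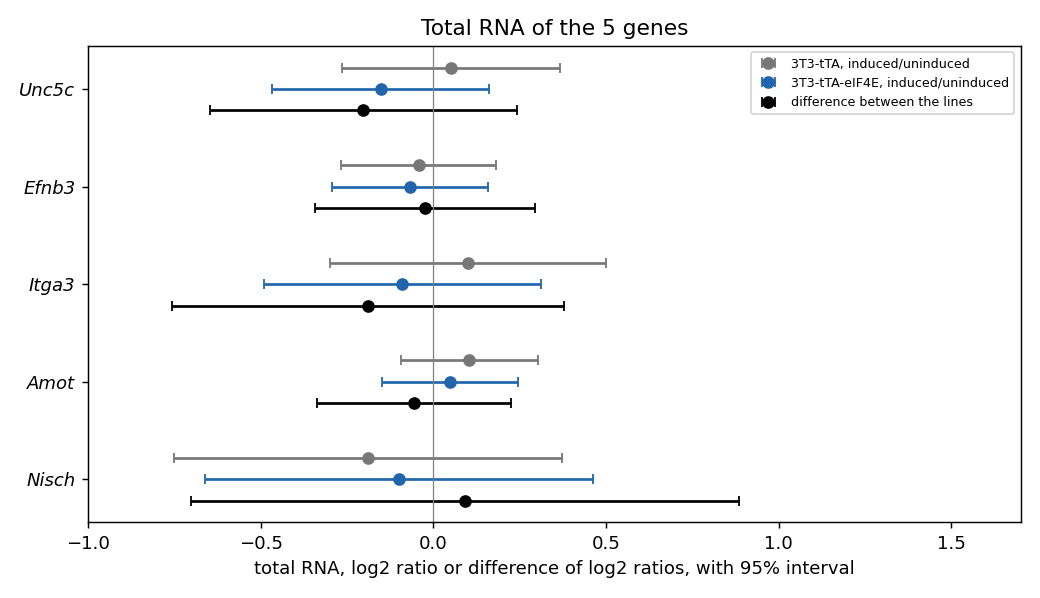
Total RNA of the 5 genes (y axis): log2 ratio of induced to uninduced RNA in 3T3-tTA (grey) and 3T3-tTA-eIF4E (blue) and the difference between the lines (black) on the x axis, with 95% intervals from limma on 2 extractions a line. Every interval crosses 0, and those of Nisch and Itga3 are the widest.

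Other genes that act in migration were taken from the same list of translationally regulated clones, so their polysomal direction was fixed by the study's choice on these arrays. Of 11 genes of adhesion and matrix, all with a row, 4 were listed as higher on polysomes of 3T3-tTA-eIF4E and 7 as lower. On total RNA 0 of the 11 passed the test, 4 lay above 0 and 7 below, with a median difference of -0.03. The farthest from 0 was Cldn7, a claudin of tight junctions, at -0.31 ± 0.17 (SE; adjusted p = 1.00, limma), followed by Msln, which encodes mesothelin, at -0.27 ± 0.27. Msln rested on T15, at -1.48, and was at 0.12 without it, while Cldn7 ran from -0.39 to -0.19 (without T7) with an array left out.

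Of 15 cytoskeletal genes, 6 were listed as higher and 9 as lower. On total RNA 0 passed, 5 lay above 0 and 10 below, with a median of -0.04. Arpc3 and Arpc1b, subunits of the Arp2/3 complex that nucleates branched actin, were farthest from 0 at 0.15 ± 0.14 and 0.12 ± 0.12, but at 0.04 and 0.01 without T13. Both were listed as higher on polysomes, with differences of 0.59 and 1.06, opposite to the 5 genes. Of 9 signalling genes 8 had a single row, 1 listed as higher and 7 as lower; on total RNA 0 passed, 2 lay above 0 and 6 below, with a median of -0.05. Dab2, an endocytic adaptor and 1 of the 2 above 0, was at 0.15 ± 0.23 on total RNA, and at 0.02 without T7. The median over all clones was -0.01.

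Among themselves the 5 genes varied together to unequal degrees. Pearson's r of their ratios was taken over the 16 arrays, with a dye term removed for each clone. It ran from 0.17 (Nisch and Unc5c) to 0.80 (Efnb3 and Nisch) over 10 pairs. The highest values belonged to pairs with the same top parental polysomal array. With P15 on top these were Efnb3 and Nisch, Efnb3 and Itga3 (0.68) and Itga3 and Nisch (0.54). With P13 on top it was Amot and Unc5c (0.65), where the Amot spots gave -0.13 and 3.17. The part of these arrays in r was not tested. The clones most like each gene, out of 564 other clones with a row from this list and the study's list of clones changed on total RNA, were Apc for Amot (r = 0.91), Sqrdl for Efnb3 (0.93), Stau1 for Nisch (0.93), Matr3 for Itga3 (0.90) and Ctcf for Unc5c (0.84). Next came MOR162-5 for Amot (0.89), Adprtl2 for Efnb3 (0.93), Ptgfrn for Nisch (0.93), Zfp72 for Itga3 (0.88) and Xpr1 for Unc5c (0.81). All 10 were listed as lower on polysomes. These values share their arrays, and these clones and the 5 genes were selected on the same polysomal contrast, so they are a description over 16 arrays.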

How the data were processed

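The authors labelled RNA with Cy3 and Cy5, scanned Mouse 15K3 cDNA arrays, normalized each array by limma's lowess without background subtraction, and deposited a log2 ratio (Cy3 over Cy5) for each spot; the version is not given in the sources used here. For 4 polysomal arrays the deposited files also hold scanner intensity values (foreground and background) that were not normalized. From these, duplicate spots were averaged and ratios turned by the labelled dyes. Each of the 15247 rows was matched to a spot pair of its own through the scanner values, with a largest distance of 0.00096 in log2.

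The members, the lists and the tests were chosen with earlier results of these data known. Of the 10 listed genes, 1 is not reported here. Named are every other cell migration gene with a row, Eif4e, up to 3 genes of each list with the largest absolute total RNA difference (some not printed), and for each member the 2 listed clones with the highest correlation. Total RNA was fitted on means of 2 extractions a line (limma 3.58.1, R 4.3.3). As the arrays of an extraction are not named, each of the 4 possible assignments was fitted and the largest p kept, with its standard error and interval; Benjamini-Hochberg adjustment ran over all clones. SDs are over 4 arrays and are not SDs of independent samples. Nothing says that the extractions came from separate cultures, so p-values measure only the spread between them. Polysomal differences have no test. Tables were made with Python 3.11.15. The fit was also run on simulated arrays with independent noise, so that run does not show how it handles noise shared within an extraction. The number of arrays limits the precision. Alternatives were arrays as replicates, other scalings, single spots, single dye orientations, each array left out, 142 dim clones left out (both channels under 1.5 times background on every scanned array) and normexp (offset 50) with loess. Medians of arrays and background correction without P15 were tried, for the named genes of the lists left-out arrays, and, for the tests within lines, left-out arrays, the smallest p and dim clones; these were added after seeing the data.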

Additional observations from a re-analysis of the deposited data

Results flagged for a closer look

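Of 20 sets of 4 arrays (5 genes in 4 conditions), 2 held an array apart from the other 3 by more than Dixon's limit. Chance sets about 1 in 20 apart, a rate that does not apply to values the genes were selected on, and both were such sets, of parental polysomal arrays with P15 on top: the gap to the nearest array was 0.864 of the range for Efnb3 and 0.877 for Itga3. Unc5c was the gene whose polysomal/total ratios were below 0 on each 3T3-tTA-eIF4E array and above 0 on each parental array. Its difference of -0.67 was not tested, as the gene was selected on it. On the 4 scanned arrays the difference was -0.51 as deposited and 0.82 after background correction. Without P15 the corrected value was -0.16, with P11 as the only parental array.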

How the results depend on the processing

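No gene of the 5 changed its call on total RNA under any setting that was fitted. Single dye orientations and medians of arrays gave differences only, without a call. The count of all clones with a total RNA difference, 0, became 3 with arrays as replicates, 6 with the smallest p of the 4 assignments, and 2 with the second duplicate spot. Leaving out an array needed arrays as replicates, whose count with all arrays was 3, and gave 0 to 4 (1 without T3, 2 without T11, 4 without T13, 3 without T15, and 0 without T1, T5, T7 or T9). Within 3T3-tTA-eIF4E, 2 became 7 with arrays as replicates, 5 with the smallest p, 0 after median centring, 4 after scaling to one median absolute deviation, 5 with the second spot and, with arrays as replicates, 4 to 7 with an array left out. Within 3T3-tTA, 0 became 4 with the smallest p and 0 to 18 with an array left out (18 without T13). These causes were not tested.

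Small total RNA differences changed sign: Amot to 0.00028 with the first spot and 0.21 in Cy3 alone, Efnb3 to 0.013 with equal deviations and 0.039 in Cy5 alone, and Nisch to -0.31 and Unc5c to 0.0024 in Cy5 alone. With an array left out the difference ran from -0.17 to 0.01 for Amot, -0.072 to 0.040 for Efnb3, -0.14 to 0.35 for Nisch, -0.34 to -0.05 for Itga3 and -0.31 to -0.04 for Unc5c, the last 2 nearest 0 without T13. Within 3T3-tTA-eIF4E it ran from -0.0060 to 0.12 for Amot, -0.24 to 0.046 for Itga3, -0.33 to 0.16 for Nisch and -0.25 to 0.0068 for Unc5c, and within 3T3-tTA from -0.11 to 0.0036 for Efnb3 and -0.047 to 0.16 for Unc5c.

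The median polysomal/total difference of the 5 genes, -0.72, was -1.22 in Cy5 arrays alone, -0.34 in Cy3 arrays alone and -1.11 as log2 of mean linear ratios. It was -0.52 with arrays scaled to one median absolute deviation (Efnb3 -0.57, Nisch -0.46) and -0.55 with medians of the 4 arrays (Amot -0.45, Efnb3 -0.55, Itga3 -0.32); log2 of mean linear ratios gave Amot -1.21 and the second spot gave Itga3 -0.34. Of 100 polysomal/total differences under other settings, 1 changed sign and 8 moved by more than the SD between arrays. The sign change was Unc5c, at 0.82 after background correction of the scanned arrays. Without P15 that corrected value was -0.16, with P11 as the only parental array. Signal at background limits Amot, Itga3 and Unc5c. No paired analysis was possible because the groups compared share no replicate numbers in the labels. Nor do the labels say which arrays of one dye belong together. The study itself ran a paired test, with its samples stratified by dye and experimental set, and that pairing was not rebuilt here. Pairing the arrays within a dye in every possible way was not tried. Dye orientation was a term of the fits with arrays as replicates.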
